A study of Mus musculus with 16 samples.

Results

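The creatine and adenylate kinase energy buffers of the mouse heart were followed through 7 transcripts chosen by gene symbol. They are the creatine kinase genes Ckm, Ckmt2 and Ckb, the creatine transporter gene Slc6a8 and the adenylate kinase genes Ak1, Ak3 and Ak4. These are 7 of the 19628 gene symbols listed in either of 2 count tables. All 7 were listed in both tables, and all 7 passed the filter on low counts in both, among 14123 tested genes in the first table and 12997 in the second.

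Total RNA from 16 mouse hearts was sequenced, with 1 heart sample per library. The first table holds 5 CPT2H-KO hearts, in which carnitine palmitoyltransferase 2 (CPT2, an enzyme needed to bring long-chain fatty acids to beta-oxidation) was deleted in cardiomyocytes, and 5 wild type hearts. The second holds 3 CPT2/USP30 double KO hearts (genotype CPT2/USP30H-KO), which also lack USP30, a mitochondrial deubiquitinase that restrains mitophagy, and 3 CPT2 single KO hearts (genotype CPT2H-KO). CPT2 deletion is therefore shared by both groups of the second table. The design text names Myh6-Cre, which is active in heart muscle cells, for the floxed USP30 allele, and neither it nor the labels name the Cre line used for CPT2. Age, sex, strain and litter are not in the labels either, nor whether wild type animals carried Cre or floxed alleles. Non-muscle cells of the heart keep both genes under a cardiomyocyte Cre. Levels were compared within each table only.

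Creatine kinases move phosphate between ATP and creatine, so that phosphocreatine can hold and carry high-energy phosphate from mitochondria to the sites that use ATP. In heart muscle the mitochondrial enzyme Ckmt2 sits in the intermembrane space near the ATP/ADP exchanger, and the muscle-type enzyme Ckm works at the myofibril and near ion pumps. Cardiomyocytes do not make enough creatine themselves and import it through the transporter encoded by Slc6a8. Adenylate kinases convert ADP into ATP and AMP, and the AMP they form is a signal of low energy that activates AMP-activated protein kinase (AMPK).

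Libraries of the first table held 54674422 to 132762776 counts and those of the second 11067969 to 13532716. A single mitochondrial ribosomal RNA gene, mt-Rnr2, held 48.7% to 55.9% of the counts in CPT2H-KO libraries and 46.3% to 50.3% in wild type libraries. The targeted transcripts went with the labels. Cpt2 stood at 40.4 ± 5.72 CPM in CPT2H-KO hearts and 77.9 ± 15.2 CPM in wild type hearts (SD, n = 5 each), where CPM is a library's count scaled to a common depth, with library sizes adjusted by TMM. Usp30 stood at 9.39 ± 1.68 CPM in double KO hearts and 21.03 ± 2.23 CPM in single KO hearts (SD, n = 3 each). Neither pair overlapped, although the edgeR adjusted p of Usp30 was 0.147. The ventricular and general cardiomyocyte markers on a list of 10 summed to 51435 to 60118 CPM in CPT2H-KO hearts and 54834 to 62902 CPM in wild type hearts. The sum weighs the most abundant genes most, and the median log2 fold change of the 10 was -0.30. Of 8 skeletal muscle markers, 2 were listed in the first table, and they summed to at most 1.75 CPM in a CPT2H-KO library and 2.46 CPM in a wild type library.

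The first comparison asks how the buffer transcripts differ when heart muscle lacks CPT2. In CPT2H-KO hearts the major creatine kinases Ckm and Ckmt2 and the adenylate kinases Ak1 and Ak4 were lower, the creatine transporter Slc6a8 was higher, and Ckb and Ak3 did not pass the test. The call is an adjusted p under 0.05 in edgeR's quasi-likelihood test. Thus 5 of 7 transcripts were called, 1 higher and 4 lower, beside a background of 33.7% of all tested genes (16.7% higher and 17.0% lower). In the same 5 transcripts no CPT2H-KO library overlapped a wild type library, a separation that 24.7% of tested genes showed. The median log2 fold change of the 7 was -0.37, and that of all tested genes was -0.01. In whole-heart RNA, fewer cells of a type and less RNA per cell cannot be told apart.

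**Figure D1:**
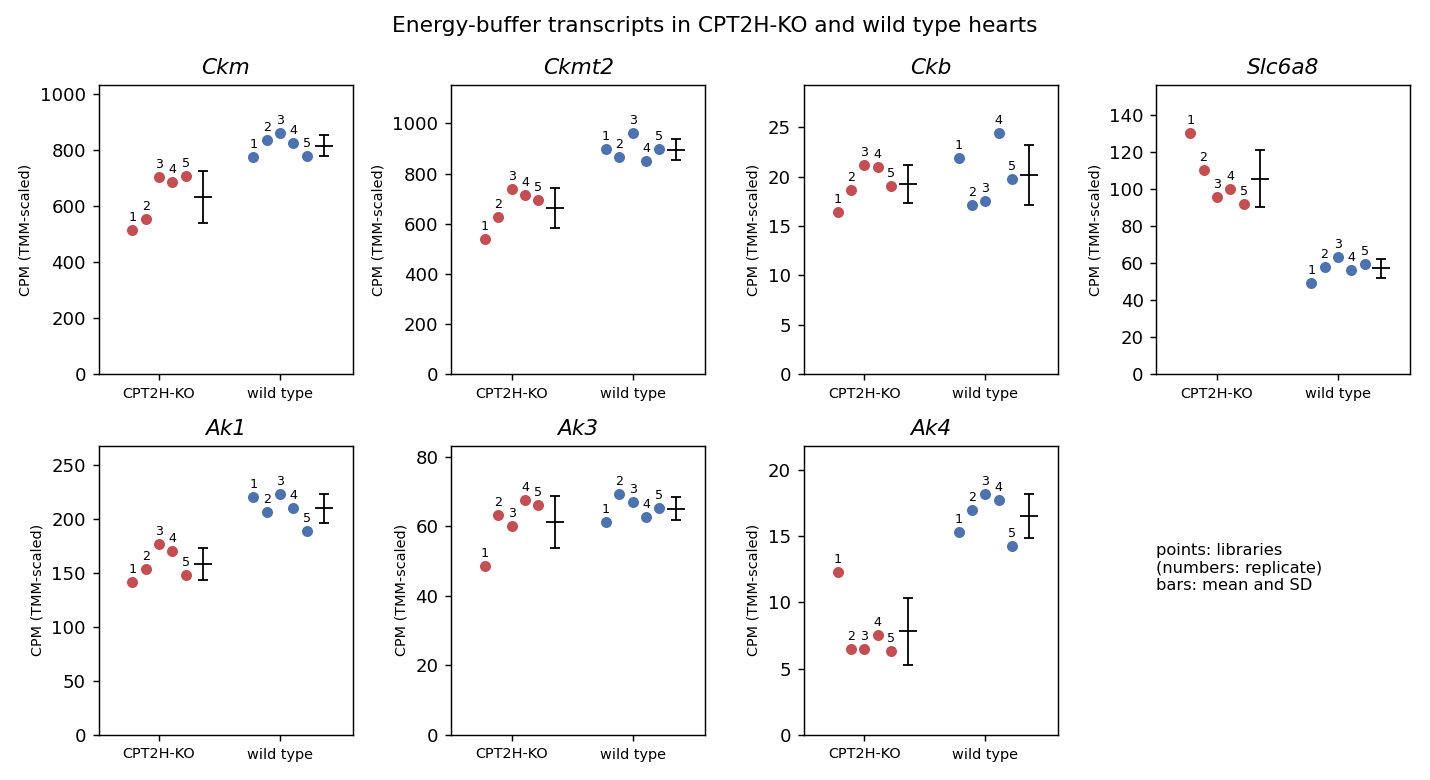
TMM-scaled CPM (depth-scaled counts, vertical axes from 0) of the 7 transcripts, with CPT2H-KO hearts left of wild type hearts. Points are libraries numbered by replicate, and bars are the mean and SD (n = 5 each). Slc6a8 lies higher in every CPT2H-KO library, Ckm, Ckmt2, Ak1 and Ak4 lie lower, and Ckb and Ak3 overlap.

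Among the creatine kinases, the muscle-type gene Ckm (chromosome 7, 19404776 to 19422841, plus strand) was at 514, 553, 705, 686 and 709 CPM in CPT2H-KO hearts, against 777, 837, 861, 825.5 and 780 CPM in wild type hearts. Every CPT2H-KO heart was below every wild type heart, and CPT2H-KO replicates 1 and 2 lay well below the other 3. Ckm fell to 634 ± 92.6 CPM in CPT2H-KO hearts, against 816 ± 36.8 CPM in wild type hearts (SD, n = 5 each). This is a log2 fold change of -0.37 (SE 0.10, 95% interval -0.58 to -0.15, edgeR adjusted p = 0.0159). With a covariate for atrial marker genes the value was nearly the same, -0.36, but it no longer passed the test (edgeR adjusted p = 0.0848). The atrial light chain gene Myl7 ranged from 0.285 to 144 CPM in CPT2H-KO hearts and from 25.4 to 194 CPM in wild type hearts. A list of 7 atrial markers summed to 398 to 2710 CPM in CPT2H-KO hearts and 259 to 1091 CPM in wild type hearts. The natriuretic peptide gene Nppa, on this list, alone held 366 to 2622 CPM in CPT2H-KO hearts and 122 to 614 CPM in wild type hearts. The median log2 fold change of the 7 was -1.10, with 2 called higher (Nppa and Fam189a2) and 1 lower (Tbx5). Without the hearts highest in Myl7, CPT2H-KO replicate 5 and wild type replicate 1, the Ckm change was -0.43 (edgeR adjusted p = 0.0231). Among the hearts left, Myl7 was at most 14.1 CPM in CPT2H-KO hearts and at least 25.4 CPM in wild type hearts. The groups then no longer overlapped in Myl7, so this fit does not test the part of atrial content.

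The mitochondrial gene Ckmt2 (chromosome 13, 91853387 to 91876885, minus strand) was at 539, 627.5, 740.1, 713.5 and 696 CPM in CPT2H-KO hearts, against 899, 867, 961, 851 and 898 CPM in wild type hearts. The groups were again fully apart, and replicate 1 was the lowest CPT2H-KO heart. Ckmt2 fell to 663 ± 81.1 CPM in CPT2H-KO hearts, against 895.5 ± 42.1 CPM in wild type hearts (SD, n = 5 each), a log2 fold change of -0.43 (SE 0.09, 95% interval -0.63 to -0.24, edgeR adjusted p = 0.00402). Ckmt2 and Ckm together make up the phosphocreatine circuit between mitochondrion and myofibril. The length-scaled ratio of Ckmt2 to Ckm was 1.93 to 2.22 in CPT2H-KO libraries and 2.02 to 2.27 in wild type libraries, so the balance of the pair overlapped between groups while both members were lower.

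The brain-type gene Ckb (chromosome 12, 111669361 to 111672338, minus strand), the cytosolic form that predominates in brain and smooth muscle, was at 16.4, 18.6, 21.1, 21.0 and 19.05 CPM in CPT2H-KO hearts, against 21.9, 17.1, 17.6, 24.4 and 19.8 CPM in wild type hearts. The groups were interleaved. The log2 fold change was -0.07 (SE 0.11, 95% interval -0.31 to 0.17, edgeR adjusted p = 0.672). Ckb made up 0.916% to 1.04% of the summed length-scaled creatine kinase level in CPT2H-KO libraries and 0.64% to 0.975% in wild type libraries, and these shares overlapped. A list of 8 smooth muscle and pericyte markers summed to 519 to 613 CPM in CPT2H-KO hearts and 792 to 879 CPM in wild type hearts, with 4 of 8 called lower and none higher. Its part in the Ckb values was not tested. Ckb has a near-identical processed pseudogene, Gm12892, which matched 373 of its bases at 98.9%, and Ckb-ps1 matched at 92%. Its counts are therefore uncertain to the extent that reads were shared.

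The sequences just before the start sites of Ckm, Ckmt2 and Ckb are printed because the first and second of these genes were lower together and Ckb did not pass the test. Each is the 250 bases upstream of the start site in RefSeq on GRCm38.p6, read 5′ to 3′ on the gene's strand. They come from chr7:19410844-19411093 (Ckm, plus strand), chr13:91876886-91877135 (Ckmt2, minus strand) and chr12:111672339-111672588 (Ckb, minus strand). Capitals mark the letters CANNTG (an E-box, the core read by basic helix-loop-helix factors), TATAAA (the box that helps place the start of transcription) and CTANNNNTAG (letters of a MEF2 site).
Ckm: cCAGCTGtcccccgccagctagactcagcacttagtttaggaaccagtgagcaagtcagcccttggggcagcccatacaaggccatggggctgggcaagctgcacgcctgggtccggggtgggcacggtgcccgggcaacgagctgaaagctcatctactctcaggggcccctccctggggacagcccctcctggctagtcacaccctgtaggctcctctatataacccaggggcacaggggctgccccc
Ckmt2: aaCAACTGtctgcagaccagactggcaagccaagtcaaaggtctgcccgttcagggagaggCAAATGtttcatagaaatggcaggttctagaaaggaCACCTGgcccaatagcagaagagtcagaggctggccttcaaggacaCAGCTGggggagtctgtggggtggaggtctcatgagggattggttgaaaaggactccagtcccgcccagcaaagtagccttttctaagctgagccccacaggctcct
Ckb: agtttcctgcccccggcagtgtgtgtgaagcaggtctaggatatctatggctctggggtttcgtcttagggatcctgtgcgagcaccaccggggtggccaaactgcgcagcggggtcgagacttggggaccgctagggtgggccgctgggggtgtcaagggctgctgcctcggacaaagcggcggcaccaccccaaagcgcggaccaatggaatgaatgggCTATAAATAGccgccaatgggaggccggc
The Ckmt2 window held 4 E-boxes, the Ckm window 1 at its far end, and the Ckb window none. The Ckb window held TATAAA lying inside CTANNNNTAG, so the pair of matches shares letters. Neither of these exact runs of letters was in the Ckm or Ckmt2 window. The Ckm window does hold the similar letters TATATAA near its start-site end, which a search for exactly TATAAA does not find. Of 32851 RefSeq promoter windows of the same length, 66.2% held CANNTG, 12.4% held TATAAA and 3.2% held CTANNNNTAG on either strand. The motifs were picked with the sequences in view, and a match describes letters only. RefSeq windows were matched for 6 of 7 genes, all but Slc6a8.

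The creatine transporter transcript moved the other way. Slc6a8 (chromosome X, 73673150 to 73682502, plus strand) was at 130.2, 110.1, 95.7, 100.1 and 92.0 CPM in CPT2H-KO hearts, against 49.4, 57.6, 63.3, 56.0 and 59.7 CPM in wild type hearts. The lowest CPT2H-KO heart was well above the highest wild type heart, and replicate 1, the lowest in Ckm and Ckmt2, was the highest in Slc6a8. Slc6a8 rose to 106 ± 15.3 CPM in CPT2H-KO hearts, against 57.2 ± 5.15 CPM in wild type hearts (SD, n = 5 each), a 1.85-fold level (95% interval 1.58 to 2.16, log2 fold change 0.88, SE 0.10, edgeR adjusted p = 1.61e-04). Only 9.49% of tested genes had a larger absolute log2 fold change. The gene lies on the X chromosome, and Y-linked transcripts were near 0 in CPT2H-KO replicates 1 and 3 and wild type replicate 1; with a sex term the log2 fold change was 0.88 (edgeR adjusted p = 0.000498). The length-scaled level of Slc6a8 per unit of Ckm was 0.0726 to 0.142 in CPT2H-KO libraries and 0.0355 to 0.0428 in wild type libraries. That these do not overlap follows from Slc6a8 being higher and Ckm lower in every CPT2H-KO library, so it is no added result.

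Among the adenylate kinases, Ak1 (chromosome 2, 32621758 to 32635058, plus strand), the main cytosolic form of muscle, was at 141, 154, 177, 171 and 148.5 CPM in CPT2H-KO hearts, against 220.4, 207, 223, 210.0 and 189 CPM in wild type hearts. All 5 CPT2H-KO hearts were below the lowest wild type heart. Ak1 fell to 158 ± 15.2 CPM in CPT2H-KO hearts, against 209.9 ± 13.5 CPM in wild type hearts (SD, n = 5 each), a log2 fold change of -0.41 (SE 0.08, 95% interval -0.58 to -0.24, edgeR adjusted p = 0.00283). Ak1 fell by 24.6%, close in size to Ckm, which fell by 22.4%, and Ckmt2, which fell by 25.9%.

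Ak3 (chromosome 19, 29020833 to 29047961, minus strand) encodes the matrix enzyme that passes phosphate between GTP and AMP. It was at 48.6, 63.2, 60.1, 67.6 and 65.9 CPM in CPT2H-KO hearts, against 61.1, 69.3, 67.0, 62.7 and 65.1 CPM in wild type hearts. Replicate 1 lay far below the wild type range, and of the other 4 CPT2H-KO hearts 3 were within that range and 1 just under it. The log2 fold change was -0.09 (SE 0.09, 95% interval -0.28 to 0.10, edgeR adjusted p = 0.458), and it was -0.02 without CPT2H-KO replicate 1 (edgeR adjusted p = 0.847).

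Ak4 (chromosome 4, 101419277 to 101466995, plus strand), a matrix adenylate kinase family member with weak enzyme activity, was at 12.3, 6.45, 6.51, 7.51 and 6.31 CPM in CPT2H-KO hearts, against 15.3, 17.0, 18.2, 17.8 and 14.2 CPM in wild type hearts. Replicate 1 lay between the other 4 CPT2H-KO hearts and the wild type hearts. Ak4 fell to 7.81 ± 2.54 CPM in CPT2H-KO hearts, against 16.5 ± 1.67 CPM in wild type hearts (SD, n = 5 each), a log2 fold change of -1.08 (SE 0.18, 95% interval -1.47 to -0.70, edgeR adjusted p = 0.00116). Without CPT2H-KO replicate 1 it was -1.30 (edgeR adjusted p = 9.73e-06). The processed pseudogene Ak3l2-ps matches 672 bases of Ak4 at 99.6%, so Ak4 counts may include or lack shared reads.

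**Figure D2:**
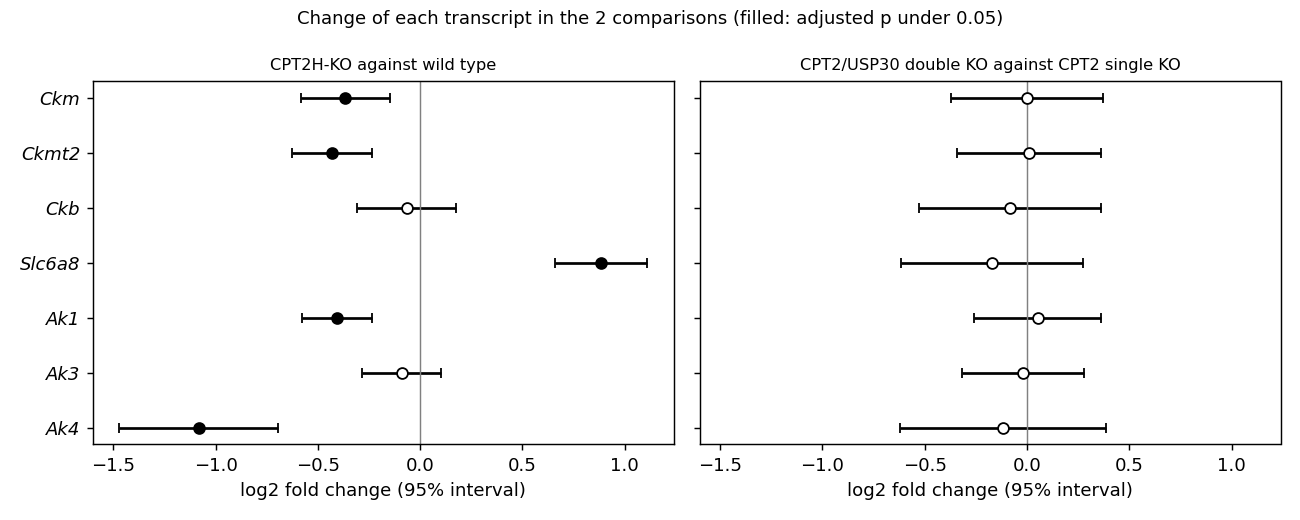
Log2 fold change (horizontal axes) with its 95% interval for each transcript, CPT2H-KO over wild type on the left and double KO over single KO on the right. Filled points have an edgeR adjusted p under 0.05: 5 of 7 on the left and 0 of 7 on the right.

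The 7 transcripts did not vary among CPT2H-KO hearts in a single direction. Replicate 1 was the lowest of the 5 in Ckm, Ckmt2, Ckb, Ak1 and Ak3, and the highest in Slc6a8 and Ak4. The same heart had the highest Nppa (2622 CPM, against 366 to 1144 CPM in the other CPT2H-KO hearts), the gene of atrial natriuretic peptide that is re-expressed under load. It also had the highest Myh7 (527 CPM, against 63.9 to 123 CPM), the slow myosin heavy chain of the fetal and stressed mouse heart. The part of these differences in the buffer values was not tested. Without this heart all 5 calls held, with log2 fold changes of -0.30 for Ckm (edgeR adjusted p = 0.0183), -0.37 for Ckmt2 (edgeR adjusted p = 0.0024), 0.80 for Slc6a8 (edgeR adjusted p = 8.19e-05) and -0.37 for Ak1 (edgeR adjusted p = 0.00417).

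CPM per kilobase of exon puts the transcripts on a scale where genes can be compared. On it Ckmt2 was the most abundant of the 7, at 446 ± 54.6 in CPT2H-KO hearts and 603 ± 28.3 in wild type hearts (SD, n = 5 each). It ranked 32 in CPT2H-KO hearts and 27 in wild type hearts among 13707 genes with a length. Ckm followed at 217.5 ± 31.8 in CPT2H-KO hearts and 280.1 ± 12.7 in wild type hearts, and Ak1 came next at 61.1 ± 5.84 in CPT2H-KO hearts and 81.0 ± 5.22 in wild type hearts. These top 3 did not overlap one another in either group. Slc6a8 took place 4 in CPT2H-KO hearts, at 20.3 ± 2.93, where its libraries overlapped those of Ak3 at 19.6 ± 2.41. In wild type hearts Slc6a8 took place 5 at 11.0 ± 0.989, below Ak3 at 20.9 ± 1.05 with no overlap. Slc6a8 and Ak3 were the only neighbours among the 7 to trade places between the groups. Ckb came next, at 6.65 ± 0.670 in CPT2H-KO hearts and 6.96 ± 1.05 in wild type hearts. Ak4 was the lowest, at 1.68 ± 0.546 in CPT2H-KO hearts and 3.55 ± 0.360 in wild type hearts. The summed creatine kinase level was 545 to 747 in CPT2H-KO libraries and 865 to 949 in wild type libraries, and Ckmt2 alone supplied 65.2% to 68.3% of it in CPT2H-KO libraries and 66.3% to 68.8% in wild type libraries.

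**Figure D3:**
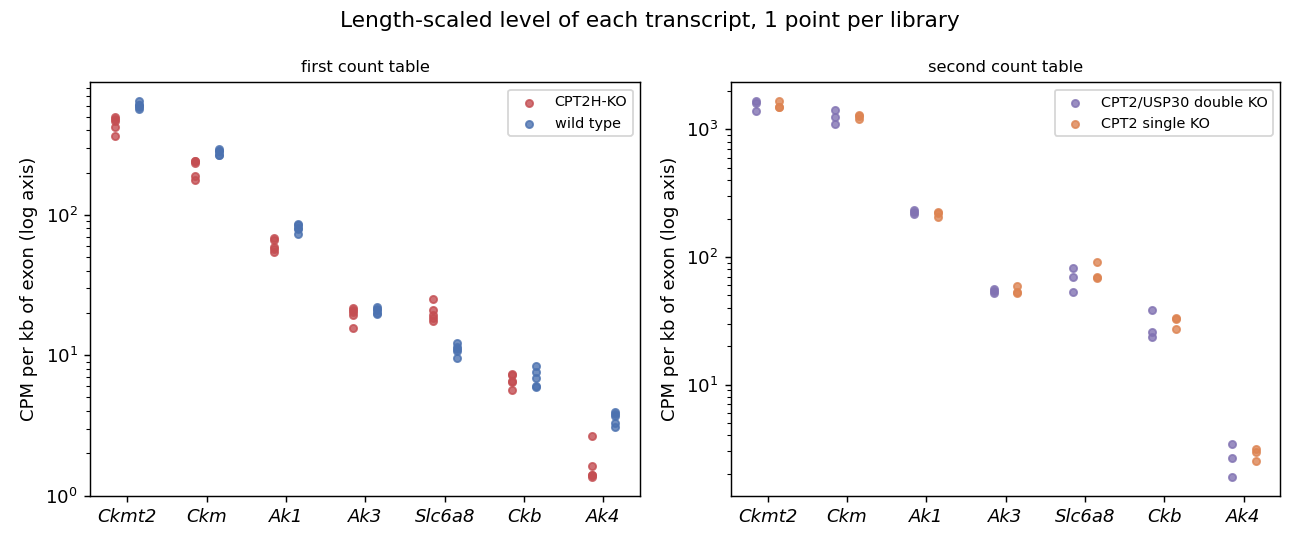
Length-scaled level (CPM per kilobase of exon, log axes) of each transcript, 1 point per library, in the first count table (CPT2H-KO left of wild type) and the second (double KO left of single KO). In the first table Ckmt2, Ckm and Ak1 lead, and Slc6a8 overlaps Ak3 in CPT2H-KO hearts and lies below it in wild type hearts. The 2 panels come from separate tables, and levels are not compared between them.

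Parts of 3 genes lie opposite annotated transcripts of the other strand. These take 15.5% of the exon bases of Ckm (A930016O22Rik), 5.65% of those of Ckmt2 (1700119I11Rik) and 13.8% of those of Ak3 (the coding gene Cdc37l1), with a further 9.07% of Ak3 under 1700018L02Rik. The kit keeps strand, but no label states the strand setting of the counting, so reads of these stretches are uncertain in their gene.

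The genes whose pattern over the 10 libraries of the first table was most like each transcript were found by Pearson's r of log2 CPM among 10176 genes. All values share the same libraries and the same contrast between groups. Nearest to Ckm were Epb41l3 (r = 0.987), Akr7a5 (0.985) and B4galt3 (0.985), and nearest to Ckmt2 were Gstm2 (0.992), the complex I subunit gene Ndufs6 (0.989) and Osbpl6 (0.987). Slc6a8 was nearest to Tspan17 (0.995), the translation termination factor gene Gspt1 (0.994) and Adamtsl5 (0.989). Ak1 was nearest to Ppil1 (0.992), the muscle phosphofructokinase gene Pfkm (0.989) and the sarcoglycan gene Sgca (0.988). Ak4 was nearest to Dixdc1 (0.991), Tspyl4 (0.973) and Atp9a (0.969). The neighbours of the 2 uncalled transcripts had lower r. They were Acaa1a (0.929), Atg4b (0.907) and Adamts12 (0.868) for Ckb and Akr1c14 (0.956), Tmsb4x (0.944) and Xk (0.94) for Ak3. A shared group difference adds to r for called transcripts. After group means were subtracted, r was 0.943 to 0.968 for the neighbours of Ak3 and 0.882 to 0.929 for those of Ckb. It was 0.962 to 0.974 for those of Ckm, 0.945 to 0.967 for those of Ckmt2 and 0.945 to 0.964 for those of Ak1. For the neighbours of Slc6a8 it was 0.899 to 0.953, and for those of Ak4 0.849 to 0.954.

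Around these 7 transcripts, 7 lists held 60 further genes of adenylate and creatine metabolism and of the ATPases that draw on the buffer. Of 53 tested in the first table, 8 were higher, 7 lower and 38 not called in CPT2H-KO hearts. That is 28.3% called, beside the background of 33.7%, and their median log2 fold change was -0.06. The nuclear adenylate kinase gene Ak6 had a log2 fold change of -0.11 and did not pass the test. The creatine synthesis genes Gatm (log2 fold change 0.13) and Gamt (-0.38) did not pass either, and both were near 1 to 2 CPM.

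Of the 10 carrier and channel genes that pass adenine nucleotides and phosphate across the mitochondrial membranes, 2 were higher and 1 lower. Slc25a5, an ATP/ADP exchanger, rose by a log2 fold change of 0.37 (edgeR adjusted p = 0.0111) and Slc25a42, a carrier of coenzyme A and adenine nucleotides, by 0.63 (edgeR adjusted p = 0.0315). The outer membrane channel gene Vdac3 fell by 0.49 on the log2 scale (edgeR adjusted p = 9.74e-04). The main heart exchanger Slc25a4 stood at 1794 ± 111 CPM in CPT2H-KO hearts and 2061 ± 156 CPM in wild type hearts (SD, n = 5 each) and did not pass the test (log2 fold change -0.20, edgeR adjusted p = 0.0637). It was chosen after its values were seen.

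Of 11 AMPK subunit and upstream kinase genes, 1 was higher and 2 were lower: the log2 fold changes were 0.68 for Prkab2 (edgeR adjusted p = 0.0177), -0.34 for Prkag1 (edgeR adjusted p = 0.00639) and -0.26 for Prkaa1 (edgeR adjusted p = 0.0133). Of 15 genes of AMP, adenosine and purine handling, 3 were higher and 2 lower. The salvage enzyme gene Aprt rose by 0.52 (edgeR adjusted p = 0.00109). Ada (1.14) and Adss (0.38) were also called higher (edgeR adjusted p = 0.00749 and 0.0129). Ada was barely expressed, at 0.781 CPM in CPT2H-KO hearts and 0.353 CPM in wild type hearts. The 5′-nucleotidase genes Nt5c1a, whose enzyme makes adenosine from AMP, and Nt5c3 fell by 1.03 and 0.48 on the log2 scale (edgeR adjusted p = 0.00559 and 0.00162). Of 5 nucleoside diphosphate kinase genes, Nme1 was called, at 0.78 (edgeR adjusted p = 3.39e-04), and Nme2 had -0.13 and Nme6 -0.07. Nme1 and Nme2 are similar neighbours that can share reads, so this split is uncertain.

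Of 8 ATPase genes at the sites of use, 1 was higher and 2 lower. Atp2a2, the calcium pump of the sarcoplasmic reticulum, fell to 3274 ± 395 CPM in CPT2H-KO hearts, against 5223 ± 277 CPM in wild type hearts (SD, n = 5 each, log2 fold change -0.67, edgeR adjusted p = 4.58e-04). The plasma membrane calcium pump gene Atp2b4 rose by 0.35 (edgeR adjusted p = 0.00804). For comparison, 2 of 10 cardiomyocyte markers were higher and 5 lower in the same hearts, 1 of 8 endothelial markers was higher and 1 lower, and 2 of 8 fibroblast markers were higher and 1 lower. Fibroblast markers summed to 1106 to 1692 CPM in CPT2H-KO hearts and 970.3 to 1480 CPM in wild type hearts, which overlap. The part of cell makeup in the buffer transcripts was not tested.

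**Figure D4:**
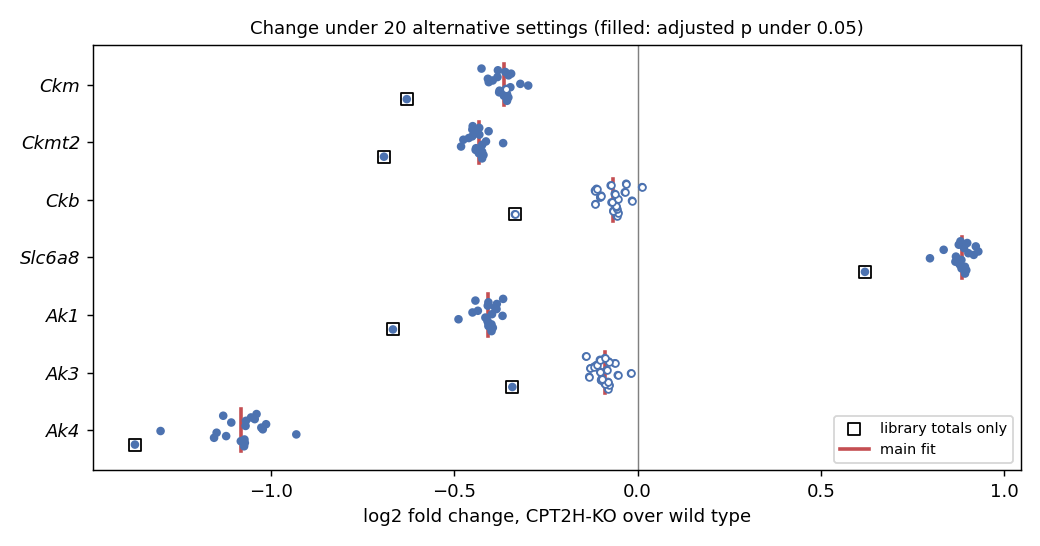
Log2 fold change of CPT2H-KO over wild type (horizontal axis) for each transcript under 20 other settings, 1 point per setting, with the reported value as a line and filled points at an adjusted p under 0.05. Boxed points were scaled by library totals alone, under which the median over all genes is -0.27. Ckm has 1 open point (-0.36, the atrial covariate) and Ak3 has 1 filled point (-0.34, library totals).

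The second comparison asks how the same transcripts differ when USP30 is deleted on top of CPT2. None of the 7 passed the test in double KO hearts, and in none did the groups stay apart. The background was 0% of 12997 genes called by edgeR (0 genes), 7.25% at an unadjusted p under 0.05 (942 genes) and 11.8% with groups that do not overlap. DESeq2 called 124 of 13286 genes (0.933%) and limma-voom 0, and 0 of the 7 were called by either.

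**Figure D5:**
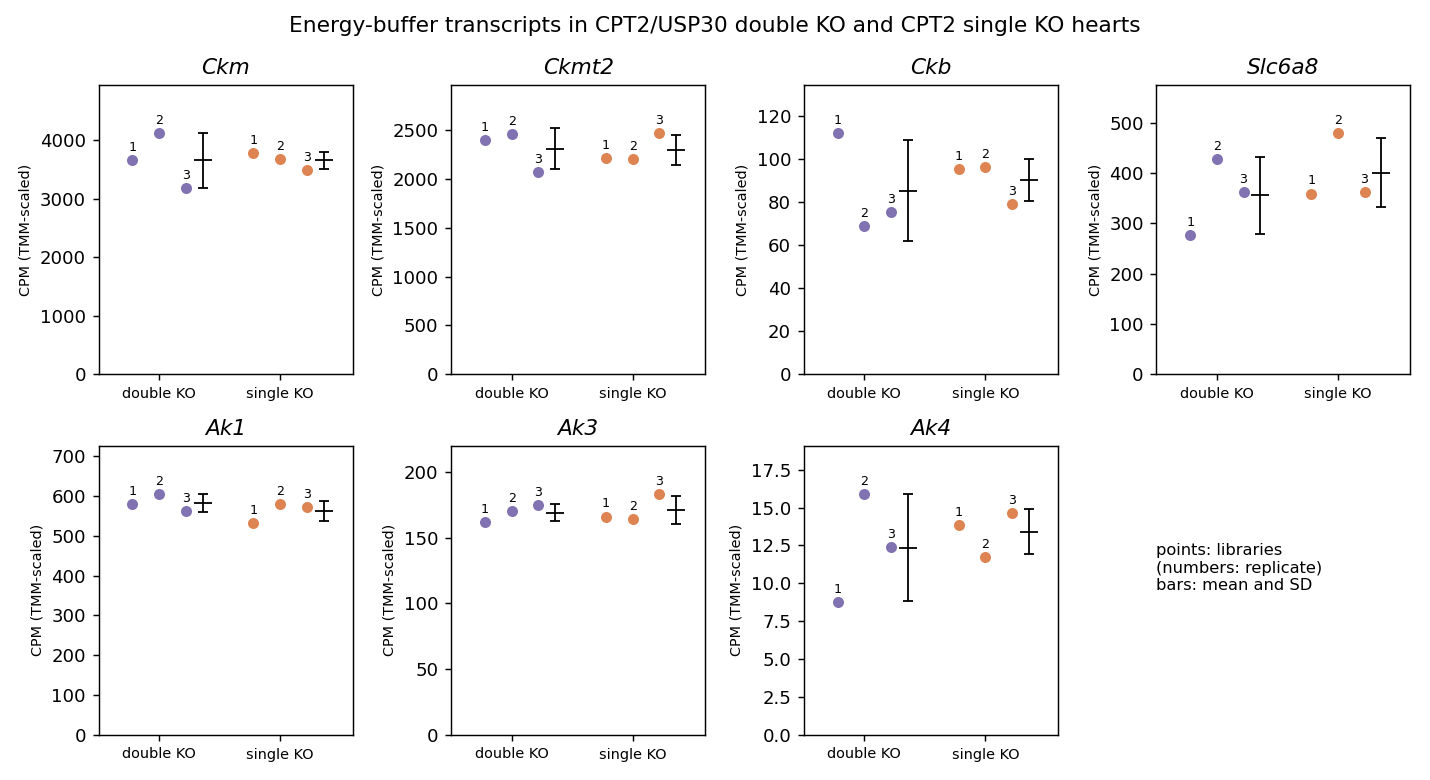
TMM-scaled CPM (depth-scaled counts, vertical axes from 0) of the 7 transcripts, with double KO hearts left of single KO hearts. Points are libraries numbered by replicate, and bars are the mean and SD (n = 3 each). The groups overlap for every transcript, and Slc6a8, Ckb and Ak4 spread most among double KO hearts.

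Ckm was at 3656, 4117 and 3183 CPM in double KO hearts, against 3783, 3682 and 3486 CPM in single KO hearts, and Ckmt2 at 2403, 2457 and 2070 CPM in double KO hearts, against 2211, 2209 and 2471 CPM in single KO hearts. The double KO hearts spanned the single KO range for Ckm, with replicate 3 lowest for both genes. The log2 fold changes were 0.00 for Ckm (95% interval -0.37 to 0.37, edgeR adjusted p = 0.999) and 0.01 for Ckmt2 (95% interval -0.34 to 0.36, edgeR adjusted p = 0.995). For size only, the changes in the first comparison were -0.37 for Ckm and -0.43 for Ckmt2. That is a different contrast in other hearts, so they are not tested against these intervals.

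Slc6a8 was at 276, 428 and 361 CPM in double KO hearts, against 359, 479 and 362 CPM in single KO hearts. The lowest heart was a double KO heart and the highest a single KO heart, and the rest overlapped. The log2 fold change was -0.17 (95% interval -0.62 to 0.27, edgeR adjusted p = 0.913). It was -0.58 with the atrial covariate (edgeR adjusted p = 0.276) and -0.03 with a sex term. Among single KO hearts only replicate 3 lacked Y-linked transcripts, as every double KO heart did. The sex-term value therefore compares double KO hearts with that heart alone. The atrial value leans on double KO replicate 1, the only double KO heart with little Myl7 (1.49 CPM). Ckb was at 112, 68.6 and 75.3 CPM in double KO hearts, against 95.2, 96.4 and 79.1 CPM in single KO hearts, and its log2 fold change was -0.08 (95% interval -0.53 to 0.36, edgeR adjusted p = 0.967). Double KO replicate 1 was the highest of the 6 hearts in Ckb and the lowest in Slc6a8, and it had the highest Nppa of the 6 (7450 CPM).

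Ak1 was at 579, 605.5 and 563 CPM in double KO hearts, against 533, 579.5 and 574 CPM in single KO hearts. Ak3 was at 162, 169.9 and 175 CPM in double KO hearts, against 166, 164 and 183 CPM in single KO hearts. Both were tight within groups and overlapping, with log2 fold changes of 0.05 (95% interval -0.26 to 0.36, edgeR adjusted p = 0.97) and -0.02 (95% interval -0.32 to 0.28, edgeR adjusted p = 0.988). Ak4 was at 8.80, 15.9 and 12.4 CPM in double KO hearts, against 13.8, 11.8 and 14.7 CPM in single KO hearts. Its log2 fold change was -0.12 (95% interval -0.62 to 0.39, edgeR adjusted p = 0.951). With the atrial covariate the Ak4 value was -0.68 and was not called (edgeR adjusted p = 0.268). Without double KO replicates 2 and 3, which were highest in Myl7, it was -0.61. That fit keeps only double KO replicate 1, the lowest heart of either group in Ak4. The same heart was the only double KO heart with little Myl7 (1.49 CPM), so the covariate value leans on it too. These 2 values are therefore not separate checks.

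The order of length-scaled levels in the second table was Ckmt2, Ckm, Ak1, Slc6a8, Ak3, Ckb and Ak4 in both groups. In double KO hearts Ckmt2 and Ckm overlapped (1393 to 1653 and 1093 to 1413 CPM per kilobase), as did Slc6a8 and Ak3 (53.0 to 82.2 and 51.9 to 56.1). In single KO hearts neither pair overlapped. Of 54 tested genes in the 7 surrounding lists, none was called in double KO hearts.

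The groups of the second table also differed in other respects. Double KO replicates 2 and 3 had 102 and 425 CPM of the atrial light chain gene Myl7, against 1.49 CPM in double KO replicate 1 and at most 0.458 CPM in single KO hearts. Y-linked transcripts were near 0 in all 3 double KO hearts and in single KO replicate 3 and present in single KO replicates 1 and 2. Fibroblast markers summed to 4485 to 5740 CPM in double KO hearts and 2893 to 3457 CPM in single KO hearts, with 0 of 8 called. Schwann cell and neuron markers summed to 27.2 to 37.4 CPM in double KO hearts and 19.3 to 22.8 CPM in single KO hearts. Red blood cell markers summed to 4556 to 7763 CPM in double KO hearts and 8129 to 10044 CPM in single KO hearts. No gene of these lists was called. The part of these in the values above was not tested.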

How the data were processed

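Per the labels' protocols, heart RNA was column-purified with DNase treatment and made into stranded libraries after ribosomal RNA removal. Per the submitters' processing notes, bcl2fastq, HISAT2, the mm10 build and DESeq2 1.42.0 were used. Which program, annotation and strand setting made the counts is not stated there. The authors deposited raw gene counts, whole numbers that were not normalised, in 2 tables with different gene sets. The first lists 14138 genes and the second 17831, and 1 unnamed row of the second was dropped.

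Each table was tested on its own with edgeR 4.0.16 (R 4.3.3): filterByExpr, TMM scaling and the quasi-likelihood F test with Benjamini-Hochberg adjustment over all tested genes. The threshold was an adjusted p of 0.05. An SE is obtained as log2 fold change over the square root of F. Replicates of a group are separate samples per the labels, and p-values measure the spread between them. Levels per kilobase used the union of exons of GENCODE M21 on GRCm38, the assembly of mm10, and similar transcripts were searched with BLAST 2.17.0 (at least 200 bases at 90% identity). Surrounding genes were named as the 3 with the smallest p in each list, and like patterns as the 3 highest correlations among genes whose average log2 CPM is 1 or more. Other genes of those lists that passed are also given, and some genes that the rule names are left out here. The 7 transcripts, the lists and the tests were chosen with earlier results of these data known. Alternatives covered scaling, the filter, DESeq2 1.42.0, limma-voom (limma 3.58.1), terms for replicate number, sex and atrial content (a covariate of 3 genes), and leaving libraries out. The fit was tested on simulated data, in which 200 genes were changed and the counts of each gene were drawn independently. Recovery depends on the share of genes changed, and in the first table itself 33.7% of tested genes were called. The rates that follow therefore describe the simulation and not the power in these data. With the design of the first table it recovered 38.8%, 85.1% and 96.9% of genes changed by 0.5, 1 and 2 on the log2 scale. With that of the second it recovered 1.49%, 61.2% and 92.1%, so changes of 0.5 were mostly missed there. Unchanged genes called numbered 11 in the first and 8 in the second.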

Additional observations from a re-analysis of the deposited data

Results flagged for a closer look

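Ak4 in CPT2H-KO replicate 1 stood apart from the other CPT2H-KO hearts. It was at 12.3 CPM, and the nearest other CPT2H-KO heart was at 7.51 CPM, a gap of 0.798 of the range of the group. Of the 7 transcripts in each of the CPT2H-KO and wild type groups, 14 sets of 5 libraries were checked, and 1 was marked. Chance marks about 1 in 20 such sets.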

How the results depend on the processing

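Against wild type, under 20 alternatives, Ckmt2, Slc6a8, Ak1 and Ak4 kept direction and call in all 20 and Ckm in 19, losing its call with the atrial covariate (-0.36, edgeR adjusted p = 0.0848). Ak3 was called with library totals only (-0.34, edgeR adjusted p = 0.0485, beside an all-gene median of -0.27). Leaving out single libraries moved Ckb between -0.116 and 0.0124, and turned its sign only without wild type replicate 4. The atrial covariate cut the genes called to 3103. For double against single KO, no alternative called any of the 7 transcripts, and genes called were 124 with DESeq2, 1 with the replicate block, 50 with the atrial covariate, 36 without double KO replicates 2 and 3 (chosen after seeing the data, as was leaving out CPT2H-KO replicate 5 and wild type replicate 1), and 0 to 114 leaving out single libraries, the highest without double KO replicate 1 and 4 without single KO replicate 3. Some signs there turned. Ckm was -0.0117 with RLE scaling, -0.00705 with library totals, -0.0137 unfiltered, -0.0186 with DESeq2, -0.0061 with limma-voom, -0.00648 with the replicate block and -0.00485 without double KO replicates 2 and 3. Ckmt2 was -0.00424 with RLE scaling, -0.00633 unfiltered, -0.0113 with DESeq2 and -0.0972 with the sex term. Ckb was 0.44 with the atrial covariate, 0.11 with the sex term and 0.30 without double KO replicates 2 and 3. Leaving out single libraries gave ranges of -0.0958 to 0.0796 for Ckm, -0.0399 to 0.0708 for Ckmt2, -0.328 to 0.0512 for Ckb, -0.329 to -0.0212 for Slc6a8, -0.0016 to 0.0725 for Ak1, -0.0565 to 0.0212 for Ak3 and -0.34 to 0.077 for Ak4. Where 1 double KO heart remained, it was assumed to vary like the single KO hearts. In this comparison the sex term sets double KO hearts against single KO replicate 3 alone, and the atrial covariate leans on double KO replicate 1. The causes were not tested. Scaling to the longest transcript instead of all exons moved levels per kilobase. Slc6a8 then stood at 26.6 in CPT2H-KO, 14.4 in wild type, 89.6 in double KO and 100.9 in single KO hearts, and Ak1 at 75.9, 100.7, 279 and 269.5 in the same order. Ckm stood at 298 in wild type and 1331 in single KO hearts, and Ak3 at 23.1 in wild type, 60.1 in double KO and 60.9 in single KO hearts. Same-numbered libraries correlated at -0.0868 to 0.23 in the first table and -0.205 to 0.167 in the second, and 2 of 5 and 1 of 3 numbers fitted best with their own, so replicates share only a number. With the replicate block 4179 genes were called against wild type and Ckm, Ckmt2, Slc6a8, Ak1 and Ak4 stood at -0.38, -0.44, 0.88, -0.41 and -1.12, with no call changed. With 3 hearts a group, the double KO comparison leaves intervals from about -0.62 to 0.39 for Ak4.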
